A study of Homo sapiens with 6 samples.

Results

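The conversion of B cells into macrophage-like cells was examined by RNA-seq in BLaER1-CTCF-mAID cells, with CTCF present. The members are all genes of the deposited count table, compared between the 2 control libraries at 96 h and the 2 libraries at 0 h: 30017 genes are listed, of which 14758 had enough counts to be tested. A further 8451 genes had 0 counts in all 6 libraries of the series, and 6808 had counts too low to be tested. BLaER1 is a human B cell leukaemia line, derived from RCH-ACV cells, that carries an introduced C/EBPα fused to a hormone-binding domain, and in the subclone used here both CTCF and the degradation machinery were engineered so that CTCF protein is lost when the auxin indole-3-acetic acid (IAA) is added. The 0 h control cells were collected before the factors were given. The 96 h control cells received 17β-estradiol, IL-3 and CSF-1 for 96 h without IAA. The remaining 2 libraries, 96 h CTCF-depleted, received the same factors together with IAA. They enter the filter on low counts, the scaling and the estimate of the spread, and are compared with the 96 h control near the end. All groups carry the degron-tagged CTCF and the introduced C/EBPα. The model is 1 clone of a leukaemia line in which the conversion is driven by a factor, so that p-values measure the spread between 2 cultures of this clone in each group and nothing wider.

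B cells depend on a small set of transcription factors, among them *PAX5*, *EBF1* and *TCF3*, that keep on the genes of the B cell receptor and of V(D)J recombination, the cutting and joining of receptor gene segments. Macrophages depend on PU.1, encoded by *SPI1*, and on C/EBP factors, and are known for phagocytosis, for lysosomes rich in hydrolases, for a membrane oxidase that makes superoxide, and for surface receptors that sense microbes. C/EBPα converts precursor B cells into macrophages when it is forced into them, and cells that complete the conversion leave the cell cycle. In bulk libraries such as these, fewer cells of a type and less RNA per cell cannot be told apart.

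Libraries were made from total RNA after removal of ribosomal RNA. Total counts were 9273470 and 12718780 at 0 h and 11695516 and 11267539 in the 96 h control group, and 99.9% of them fell in tested genes. Levels are given as counts per 1000000 (CPM) after trimmed mean of M values (TMM) scaling, with replicate 1 before replicate 2. The scaling factors were 1.05 and 1.05 at 0 h and 0.970 and 0.959 at 96 h. Fold changes, standard errors (SE) and adjusted p-values come from edgeR's quasi-likelihood test with Benjamini-Hochberg adjustment over all tested genes. A gene was called higher or lower at an adjusted p below 0.01 and a log2 fold change above 0.6 or below -0.6, and "higher", "lower", "rose" and "fell" refer to such calls in what follows. Counts of replicates were not within sampling noise of each other, with a chi-square per degree of freedom of 2.70 at 0 h and 1.90 at 96 h, and were used as separate samples.

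Nearly equal numbers of genes rose and fell. At 96 h, 3748 genes (25.4% of those tested) were higher and 3376 genes (22.9%) were lower than at 0 h, and 7634 were called neither way. These 2 percentages are the background for each count of list members below. Of the 7124 called genes, 2 had overlapping libraries of the groups, and non-overlap alone is common: it held for 86.7% of all tested genes. With 2 libraries a group, a two-sided permutation test of 1 gene cannot give a p below 0.333, so that the calls rest on the spread that edgeR estimates over all genes, a biological coefficient of variation of 3.96%.

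The rises were larger than the falls. The median log2 fold change was 1.58 among higher genes and -1.18 among lower genes. Of the higher genes, 1517 rose by more than 2 on the log2 scale and 397 by more than 5, whereas 867 of the lower genes fell by more than 2 and 112 by more than 5, with genes at 0 in 1 group counted at their bound of 3 counts. The median higher gene went from 7.95 to 32.2 CPM and the median lower gene from 29.9 to 11.4 CPM. The higher genes held 12.6% and 12.7% of all counts at 0 h and 34.7% and 34.8% at 96 h. The lower genes held 28.9% and 29.0% at 0 h and 11.6% and 11.5% at 96 h. The median over all tested genes was 0.02 on the log2 scale, and -0.10 when libraries were scaled to their totals alone.

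**Figure D1:**
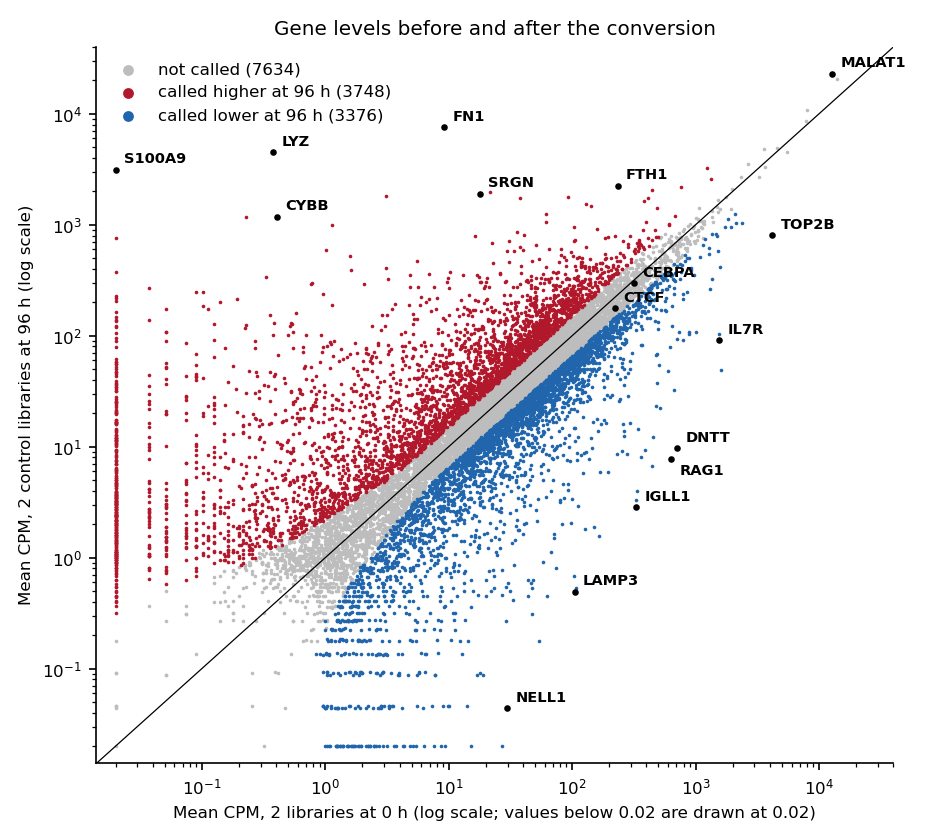
Each point is 1 of 14758 tested genes, with its mean CPM over the 2 libraries at 0 h on the horizontal axis and over the 2 control libraries at 96 h on the vertical axis, both on log scales, with the line of equal levels. The 3748 higher genes (red) include S100A9 and LYZ, which have 0 or few counts at 0 h and the highest levels of the labelled macrophage genes but FN1 at 96 h, whereas the labelled lower genes RAG1 and DNTT kept a measurable level at 96 h.

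The engineered genes themselves changed little. CTCF (chr16:67562467-67639177, + strand, hg38) had 231 and 214 CPM at 0 h and 181 and 174 CPM at 96 h. The groups did not overlap, and the log2 fold change was -0.32 (SE 0.05, adjusted p = 8.55e-08), within the fold limit. *CEBPA* had 336 and 297 CPM at 0 h and 294 and 305 CPM at 96 h, with replicate 2 at 0 h between the 2 libraries at 96 h. Its log2 fold change was -0.08 (adjusted p = 0.18). *ESR1*, the oestrogen receptor, had 582 and 549 CPM at 0 h and 444 and 479.7 CPM at 96 h, a log2 fold change of -0.29 that was not called. Reads of an introduced copy and of the cell's own gene cannot be told apart in these counts.

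Changes of the marker genes followed the labels. Of 20 B cell markers, all 20 fell, and of 20 macrophage markers, all 20 rose. These markers were chosen, like the gene lists, with earlier results of these data known. Their direction is therefore a description and not a test of identity. Some members of the broader B cell lists below rose. The summed level of the B cell markers was 8480 and 8461 CPM at 0 h and 1005 and 1022 CPM at 96 h, 8.36-fold lower at 96 h. The summed level of the macrophage markers was 133 and 123 CPM at 0 h and 10890 and 10460 CPM at 96 h, 83.2-fold higher at 96 h. *S100A9*, *FCGR1A* and *FCGR1B* had 0 counts in both libraries at 0 h, so that the starting cells held no measurable macrophage signal for these genes. None of the 20 B cell markers was at 0 at 96 h, but *MME* was close to it. It had 38 and 51 counts at 0 h and 1 and 2 counts at 96 h, and belongs to the genes switched off that are described below. The marker with the smallest rise was *TLR2*, a receptor for bacterial lipopeptides, with 6.09 and 4.5 CPM at 0 h and 9.002 and 8.24 CPM at 96 h (log2 fold change 0.73, adjusted p = 0.000987). The call of *TLR2* was lost with DESeq2 (0.70), without 0 h control replicate 2 (0.50) and without 96 h control replicate 1 (0.66). The smallest fall was that of *CD79B*, a signalling chain of the B cell receptor, with 52.1 and 51.2 CPM at 0 h and 31.1 and 30.7 CPM at 96 h (log2 fold change -0.74).

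**Figure D2:**
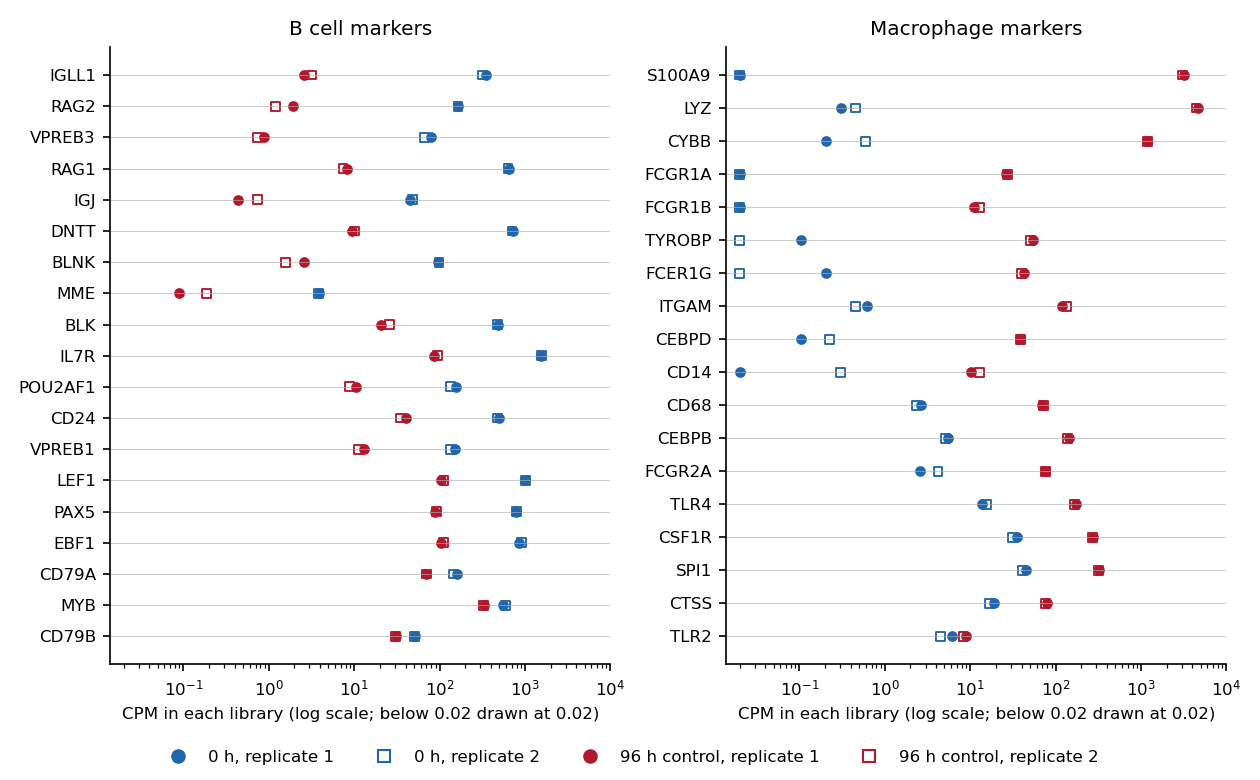
CPM (log scale) of 19 of the B cell markers (left) and 18 of the macrophage markers (right) in each of the 2 libraries at 0 h (blue) and the 2 control libraries at 96 h (red), with replicate 1 as filled circles and replicate 2 as open squares. The 2 groups do not overlap for any of the 37 genes drawn, which also held for 86.7% of all tested genes. The 96 h levels of the B cell genes range from a mean of 0.137 CPM for MME to 329 CPM for MYB.

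Among B cell transcription factors, 14 of 24 tested members fell and 5 rose, with a median log2 fold change of -1.01. *PAX5* (chr9:36833269-37034268, - strand), which commits precursors to the B lineage, had 795 and 793 CPM at 0 h and 89.1 and 93.1 CPM at 96 h. It fell by 3.12 on the log2 scale (SE 0.05, adjusted p = 8.44e-50). *EBF1*, its partner in B cell specification, went from 852 and 906 CPM to 104 and 110.2 CPM, a fall of a similar size with a log2 fold change of -3.03 (SE 0.05). *LEF1*, a target and effector of WNT signalling in precursors, had 1010.2 and 1016 CPM at 0 h and 105 and 113 CPM at 96 h. The deepest fall of the list was that of *POU2AF1*, the B cell coactivator of octamer-binding factors, from 155 and 133 to 10.6 and 8.798 CPM (log2 fold change -3.89). *IRF4*, which acts at the pre-B and plasma cell stages, went from 241 and 239 to 25.9 and 25.3 CPM. *TCF3*, which encodes the E proteins E12 and E47, fell less, from 669 and 613 to 186 and 185 CPM (log2 fold change -1.79), and *MYB* less again, from 553 and 587 to 329.6 and 328 CPM (log2 fold change -0.79).

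All of these B cell regulators still had measurable levels at 96 h. *IKZF1*, *BCL6* and *TCF12* were not called, with mean levels of 315, 184 and 210.0 CPM at 0 h and 294, 220.0 and 222 CPM at 96 h. The members that rose were *ETS1*, *POU2F2*, *AFF3*, *SPIB* and *ZNF521*. *ETS1*, which is used by lymphoid and other cells, had 74.3 and 73.1 CPM at 0 h and 292 and 287 CPM at 96 h (log2 fold change 1.97). *POU2F2*, the octamer-binding factor that *POU2AF1* assists, rose from 18.7 and 17.3 to 72.6 and 88.5 CPM.

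The pre-B cell receptor list had 13 of 22 members lower and 3 higher (median log2 fold change -0.82). *IGLL1*, the lambda5 part of the surrogate light chain, had 346 and 315 CPM at 0 h and 2.56 and 3.15 CPM at 96 h (log2 fold change -6.85, SE 0.10, adjusted p = 1.4e-51). *VPREB1*, the other part of the surrogate light chain, went from 151 and 135 to 12.97 and 11.2 CPM, and *VPREB3* from 79.5 and 67.4 to 0.883 and 0.741 CPM. The surrogate light chain genes thus kept a small share of their starting level, whereas the signalling chains *CD79A* and *CD79B* kept a larger one. *CD79A* had 161 and 145 CPM at 0 h and 68.9 and 69.9 CPM at 96 h (log2 fold change -1.14). *BLNK*, the adaptor that links the receptor to its enzymes, fell from 96.4 and 98.3 to 2.56 and 1.57 CPM. *BLK*, a B cell kinase of the SRC family, fell from 482 and 472 to 20.8 and 25.9 CPM.

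The 3 members that rose in the receptor list are enzymes that myeloid cells also use. *PRKCB*, protein kinase C beta, had 4.64 and 5.03 CPM at 0 h and 359.6 and 347 CPM at 96 h (log2 fold change 6.18, SE 0.08, adjusted p = 6.5e-54). *LYN*, a kinase of the SRC family, had 60.7 and 61.7 CPM at 0 h and 419 and 415 CPM at 96 h (log2 fold change 2.77). *PLCG2*, a phospholipase downstream of both B cell and Fc receptors, rose from 34.3 to 103 CPM on average. *SYK* and *BTK*, kinases shared by both cell types, were not called, with log2 fold changes of 0.48 and -0.35.

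The V(D)J recombination list had 8 of 13 members lower and 1 higher, and the falls were unequal within it. *RAG1* (chr11:36510372-36593156, + strand), which encodes the catalytic part of the recombinase, had 644 and 632 CPM at 0 h and 8.21 and 7.41 CPM at 96 h (log2 fold change -6.35, SE 0.07, adjusted p = 7.81e-57). *RAG2*, its partner in the same locus, had 166 and 164 CPM at 0 h and 1.94 and 1.204 CPM at 96 h (log2 fold change -6.70). *DNTT*, the terminal transferase that adds bases at the joints, had 719.8 and 704 CPM at 0 h and 9.44 and 10 CPM at 96 h (log2 fold change -6.19). The lymphoid-specific enzymes of the list therefore fell by more than 6 on the log2 scale each, while the end-joining genes that all cells use moved far less. *PRKDC*, the DNA-dependent kinase of end joining, fell from 1695 and 1775 to 958 and 969.8 CPM (log2 fold change -0.85). *XRCC5* was not called, at 718 and 487 CPM on average, and fell past the fold limit when libraries were scaled to their totals (log2 fold change -0.68). *XRCC4* rose with a log2 fold change of 0.65, a call lost without 0 h control replicate 1 (0.53) or 96 h control replicate 2 (0.48), and with 2 other scalings (0.53).

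Surface antigens of precursor B cells moved in both directions: 9 of 21 tested fell and 7 rose, with a median close to 0. *IL7R*, the receptor for the growth factor of precursor B cells, had 1534 and 1568 CPM at 0 h and 87.1 and 95.2 CPM at 96 h (log2 fold change -4.09, SE 0.05, adjusted p = 2.32e-54). *CD24* fell from 493 and 482 to 40.1 and 35.1 CPM (log2 fold change -3.69). *PTPRC*, which encodes the leukocyte antigen CD45, had 3 and 0 counts at 0 h and 852 and 859 counts at 96 h (594-fold higher, 95% counting interval 203 to 2881). The starting cells thus had almost no counts of a gene that leukocytes broadly express. *CD9*, *CD81*, *CD99* and *SPN* were not called.

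The factors of the C/EBP family differed from each other. *CEBPA*, which is also the introduced factor, did not change by the thresholds. *CEBPB*, the family member of monocytes and inflammation, had 5.47 and 5.1 CPM at 0 h and 145 and 136 CPM at 96 h (log2 fold change 4.74, SE 0.10, adjusted p = 4.89e-44). *CEBPD* had 0.103 and 0.225 CPM at 0 h and 38.3 and 38.8 CPM at 96 h (log2 fold change 7.70, from 4 counts at 0 h). By mean CPM the level of *CEBPB* at 96 h was below that of *CEBPA* in the same libraries. Per kilobase of exon, *CEBPA* had 122 CPM at 0 h and 115 CPM at 96 h, *CEBPB* 2.87 and 76.5 CPM, and *CEBPD* 0.131 and 30.8 CPM. Of the related pseudokinases *TRIB2* and *TRIB1*, *TRIB2* fell from 288 and 299 to 49.2 and 51.5 CPM (log2 fold change -2.54), and *TRIB1* rose from 56.8 and 62.9 to 175 and 180.4 CPM (log2 fold change 1.56).

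Of the 45 myeloid transcription factors tested, 38 rose and 2 fell, with a median log2 fold change of 2.10 and a summed level of 2594 and 2627 CPM at 0 h and 8843 and 8905 CPM at 96 h. *SPI1*, which encodes PU.1, was already present at 45.5 and 40.4 CPM at 0 h and rose to 321 and 316 CPM (log2 fold change 2.90, SE 0.06, adjusted p = 3.74e-45). *IRF8*, which works with PU.1 in monocytes and dendritic cells, rose from 15.2 and 10.8 to 356 and 342 CPM. *NFE2* had only 3 and 1 counts at 0 h and 2386 and 2361 counts at 96 h, that is 211 and 219 CPM. *KLF4*, a monocyte factor, rose from 1.03 and 0.90 to 83.5 and 76.1 CPM. *FOSL2*, a subunit of AP-1, reached the highest level of the list, from 38.8 and 37.1 to 1766 and 1733 CPM (log2 fold change 5.53, SE 0.06). *LMO2*, a bridging factor of haematopoietic complexes, rose from 9.28 and 10.4 to 331 and 331 CPM.

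*RUNX1* and *FLI1*, which both lineages use, were not called, at 561 and 398 CPM at 0 h and 820.2 and 415 CPM at 96 h. The 2 members that fell were *CREB5*, from 80.8 and 83.9 to 1.85 and 2.13 CPM, and *NR4A1*, from 9.08 and 8.1 to 5.03 and 4.72 CPM, the latter a call lost with DESeq2 (log2 fold change -0.83) and without 96 h control replicate 2 (-0.76). The Kruppel-like factors had 7 of 12 members higher and 1 lower. *KLF2* rose from 0.309 and 0.525 to 68.1 and 65.5 CPM and *KLF10* from 22.3 and 16.7 to 204 and 195 CPM, and *KLF12* fell from 128 and 134 to 75.5 and 79.3 CPM.

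Macrophage surface receptors gave the highest share of rises of any list of more than 20 members: 43 of 45 tested rose and none fell. The median log2 fold change was 7.26 as fitted, and 6.0 with the 15 members that had 0 counts at 0 h set to their bound. *STAB1* (chr3:52495338-52524495, + strand), a scavenger receptor of macrophages and sinusoidal endothelium, had 3 and 2 counts at 0 h and 13222 and 12547 counts at 96 h, that is 1167 and 1162 CPM. *CSF1R*, the receptor of CSF-1, which was added to the culture, had 35.1 and 31.4 CPM at 0 h and 276 and 271 CPM at 96 h (log2 fold change 3.05). *CLEC12A*, an inhibitory lectin receptor, had 0 counts in both libraries at 0 h and 2599 and 2452 counts at 96 h and was at least 1752-fold higher. *CD163*, the haemoglobin scavenger receptor, had 0 counts at 0 h and 52.2 and 53.2 CPM at 96 h (at least 404-fold higher).

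The receptors used to sort macrophages reached unequal levels. *CD14*, the coreceptor for lipopolysaccharide, had 0 and 4 counts at 0 h and 115 and 139 counts at 96 h, 10.1 and 12.9 CPM (log2 fold change 5.96). *ITGAM*, the integrin chain CD11b, had 0.619 and 0.45 CPM at 0 h and 120.2 and 136 CPM at 96 h (log2 fold change 7.91). *SIRPA*, which binds *CD47*, rose from 8.36 and 6.9 to 274 and 279.7 CPM. *MSR1* and *CD36*, both scavenger receptors, had 0 counts at 0 h, and 89.9 and 89.7 and 45.5 and 48.99 CPM at 96 h. *SCARB1* and *CLEC4A* were the members not called, with log2 fold changes of 0.48 and 1.14, and without 0 h control replicate 2 *CLEC4A* was called (2.27).

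Receptors for antibodies followed the same direction, with 8 of 10 tested higher and 1 lower. *FCGR1A*, the high-affinity receptor for IgG, had 0 counts at 0 h and 26.1 and 27.3 CPM at 96 h (at least 205-fold higher); it shares much of its sequence with *FCGR1B*, so that reads may be split between them. *FCGR2A* rose from 2.58 and 4.2 to 74.8 and 77.05 CPM (log2 fold change 4.43). The member that fell, *FCRLA*, is a B cell protein related to Fc receptors and went from 12.6 and 11.9 to 0.353 and 0 CPM. Receptors of the LILR and LAIR group had 10 of 12 higher and none lower, among them *LAIR1*, from 27.4 and 25.1 to 371 and 371 CPM. The MS4A family, to which the B cell antigen CD20 belongs, had 4 of 6 tested members higher and 1 lower. The Siglecs were mixed, 5 higher and 3 lower of 9: *SIGLEC1*, a macrophage receptor for sialic acid, had 0 counts at 0 h and 18.4 and 15.2 CPM at 96 h, and *CD22*, its B cell relative, fell from 185 and 179 to 32.5 and 37.1 CPM.

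Sensors of microbes and their adaptors had 19 of 28 tested members higher and 3 lower (median log2 fold change 1.83). *TLR4*, the lipopolysaccharide receptor, was present at 13.7 and 15.4 CPM at 0 h and at 174 and 167 CPM at 96 h (log2 fold change 3.54). *NLRP3*, the sensor of an inflammasome, had 20.4 and 18.2 CPM at 0 h and 269 and 269.9 CPM at 96 h (log2 fold change 3.81). *NOD2*, a sensor of bacterial cell walls, had 0 counts at 0 h, and 13.5 and 12.2 CPM at 96 h (at least 98.9-fold higher). The members that fell were *TLR10*, *TLR3* and *SLC15A4*, with log2 fold changes of -2.82, -2.26 and -1.41. *TLR3* lost its call with DESeq2 (-2.31) and without replicate 2 of either group (-2.15 and -1.80).

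The phagocyte NADPH oxidase, which makes superoxide in the phagosome, had 7 of 10 tested genes higher and 1 lower. *CYBB* (chrX:37780018-37813461, + strand), the catalytic subunit, had 2 and 8 counts at 0 h and 13334 and 12933 counts at 96 h, that is 1177 and 1198 CPM (log2 fold change 11.38, SE 0.11, adjusted p = 3.72e-60). *CYBA*, the membrane partner of *CYBB*, was already at 153 and 132 CPM at 0 h and was not called at 197 and 189.8 CPM (log2 fold change 0.45). *NCF4*, a cytosolic part, fell from 125 and 105 to 64.2 and 62.97 CPM (log2 fold change -0.85). *NCF1* rose from 3.09 and 2.63 to 156 and 149.6 CPM, with the reservation that its near-identical copies *NCF1B* and *NCF1C* can take or give reads.

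Granule and secreted defence proteins rose in summed level. Of 15 tested members, 14 rose and 1 fell, and the summed level went from 32.4 and 32.1 CPM to 7134 and 6793 CPM. *LYZ* (chr12:69348381-69354234, + strand), lysozyme, had 3 and 6 counts at 0 h and 52779 and 47474 counts at 96 h, that is 4658 and 4396 CPM (log2 fold change 13.46, SE 0.12, adjusted p = 4.9e-62). *SRGN*, the proteoglycan of secretory granules, had 18.7 and 17.2 CPM at 0 h and 1927 and 1888 CPM at 96 h (log2 fold change 6.74). *MMP9*, the gelatinase, had 0 counts at 0 h and 1787 and 1461 counts at 96 h (at least 1127-fold higher). *RNASE2*, an eosinophil and monocyte ribonuclease, had 0 counts at 0 h and 47.3 and 43.8 CPM at 96 h (at least 350-fold higher). *MPO*, the peroxidase of neutrophil precursors, stayed low in comparison, with 0 and 3 counts at 0 h and 92 and 94 counts at 96 h. *PRG2*, an eosinophil granule protein, was the member that fell, with a log2 fold change of -1.41, a call lost with DESeq2 (-1.44) and without replicate 1 of either group (-1.26 and -1.14).

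Genes with S100 symbols, most of them small calcium-binding proteins, had 11 of 12 tested members higher and none lower. The median log2 fold change was 5.12 as fitted and 3.93 with the 5 members at 0 set to their bound. *S100A9* (chr1:153357854-153361023, + strand) had 0 counts in both libraries at 0 h and 36547 and 32985 counts at 96 h, that is 3226 and 3055 CPM, and was at least 24120-fold higher. *S100A8*, which pairs with *S100A9* to form calprotectin, had 0 counts at 0 h and 8820 and 7922 counts at 96 h (at least 5807-fold higher). *S100A11* was present at 0 h, at 14.5 and 11.9 CPM, and rose to 187 and 176 CPM. *S100PBP*, which binds an S100 protein and is not one itself, was not called.

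Compared per kilobase of exon, the macrophage genes entered the most abundant transcripts of the cell. *S100A9* ranked 6 among the tested genes with a known exon length at 96 h (5480.1 CPM per kilobase), *LYZ* ranked 9 (2626), *SRGN* ranked 12 (1567) and *FTH1* ranked 15 (1123). At 0 h, *S100A9* had no counts and the others ranked 12278, 2896 and 239. *GAPDH*, a glycolytic enzyme, ranked 15 at 0 h and 14 at 96 h, with 966 and 1131 CPM per kilobase. Linker and core histones, such as *HIST1H1B* at rank 9 (1448 CPM per kilobase) and *HIST1H3B* at rank 13 (1025), were among the most abundant at 0 h. Both stayed high at 96 h, at ranks 22 (833) and 27 (666).

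Integrins, which macrophages use to adhere and to take up opsonized particles, had 13 of 19 tested members higher and 2 lower. *ITGAX*, the chain CD11c, had 0 counts at 0 h and 124 and 116 CPM at 96 h (at least 923-fold higher). *ITGB2*, the beta chain that *ITGAL*, *ITGAM* and *ITGAX* share, rose from 25.4 and 20.7 to 454 and 449.7 CPM (log2 fold change 4.31). *ITGAL*, the alpha chain of LFA-1, had 2 and 0 counts at 0 h and 2087 and 2049 counts at 96 h (2152-fold higher, 95% counting interval 595 to 17780). *ITGA4*, used by lymphocytes for homing, fell from 626 and 682 to 315 and 332 CPM (log2 fold change -1.02), and *ITGB3* fell from 2.06 and 1.05 to 0 and 0.0926 CPM.

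Among cytokine receptors, 22 of 27 tested rose and 2, *IL7R* and *KIT*, fell. *IL6R* had 1.65 and 1.5 CPM at 0 h and 511 and 538 CPM at 96 h (log2 fold change 8.38, SE 0.10). *IL3RA*, the specific chain of the receptor for IL-3, which was added to the culture, rose from 2.06 and 1.95 to 58.2 and 60.5 CPM, whereas *CSF2RB*, the beta chain it works with, was not called at 54.98 and 53.8 and 34.7 and 37.4 CPM (log2 fold change -0.59). *CSF2RB* lay so close to the limit that 6 changes of tool, scaling or filter and 2 of the 4 omissions of a library called it lower (-0.60 to -0.71). *CSF3R*, the G-CSF receptor, rose from 0.722 and 0.60 to 69.1 and 74.5 CPM. Of the kinases and feedback genes downstream of these receptors, 10 of 20 rose and 3 fell. *JAK2* rose from 21.4 and 21.5 to 259 and 285 CPM, and *SOCS3*, an inhibitor of IL-6 signalling, had 0 and 2 counts at 0 h and 246 and 196 counts at 96 h (230-fold higher, 95% counting interval 63.3 to 1905).

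Chemokines and inflammatory cytokines had 18 of 20 tested members higher and 1 lower, and the other genes of the 48 listed were too low to be tested. *SPP1*, osteopontin, had 0 counts at 0 h and 2447 and 2347 counts at 96 h (at least 1663-fold higher). *IL1RN*, the antagonist of the IL-1 receptor, had 0 counts at 0 h and 136 and 139 CPM at 96 h (at least 1055-fold higher). *CCL5* rose from 1.65 and 2.78 to 67.9 and 69.3 CPM, and *LTA*, lymphotoxin alpha, fell from 4.85 and 3.15 to 0.265 and 0.926 CPM. Chemokine receptors had 13 of 16 higher and 1, *CCR7*, lower. *CCR1*, a receptor of monocytes, had 0 and 1 counts at 0 h and 385 and 399 counts at 96 h (816-fold higher, 95% counting interval 146 to 32260). *CXCR4*, which precursor B cells already express, rose from 132 and 129 to 239 and 236 CPM (log2 fold change 0.87).

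Complement genes had 16 of 19 tested members higher and 1 lower. C3, the central component, had 0 and 2 counts at 0 h and 954 and 957 counts at 96 h (994-fold higher, 95% counting interval 275 to 8216), and *VSIG4*, a macrophage receptor for C3 fragments, had 0 counts at 0 h and 26.4 and 22.8 CPM at 96 h. *CD59*, which protects cells from complement and was present at 51.5 and 51.7 CPM at 0 h, fell to 25.3 and 23.7 CPM.

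**Figure D3:**
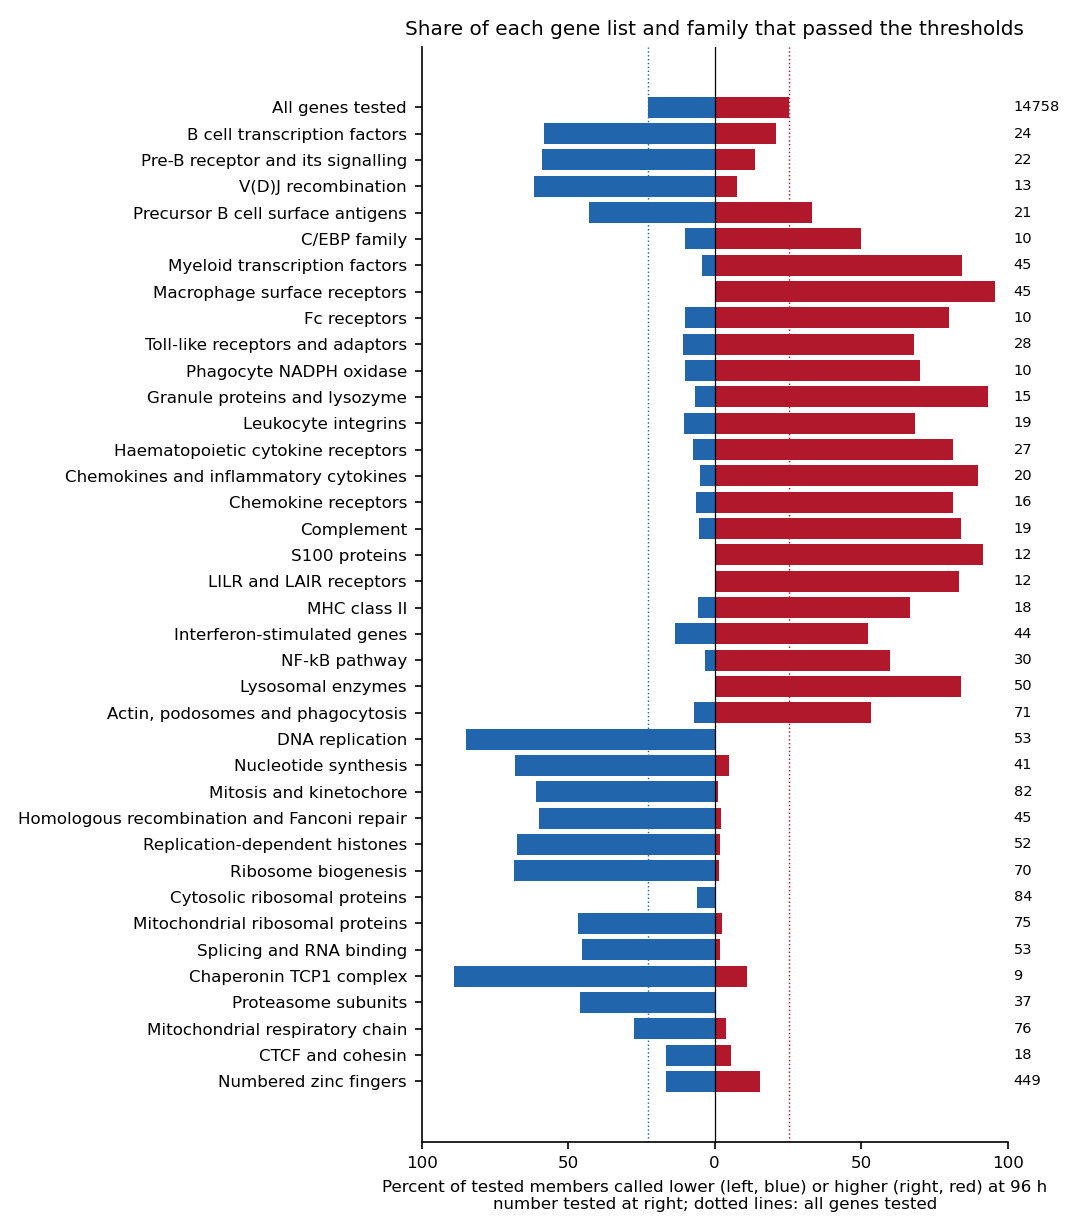
For each gene list or family, the bar to the right (red) is the percentage of tested members called higher at 96 h and the bar to the left (blue) the percentage called lower, with the number tested at the right edge and dotted lines at 25.4% and 22.9%, the values over all 14758 genes tested. Macrophage receptors, granule proteins and S100 proteins lie at the right, DNA replication and the TCP1 chaperonin at the left, and the numbered zinc fingers have both bars below the dotted lines.

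Among antigen presentation genes, a larger share rose in MHC class II than in class I. MHC class II genes had 12 of 18 members higher and 1 lower, with a median of 1.17. *HLA-DRA*, the alpha chain of the DR molecule, rose from 83.3 and 87.5 to 266 and 262 CPM and its regulator *CIITA* from 92.4 and 87.2 to 172 and 194 CPM. *CD74*, the invariant chain that guides class II molecules, was at 629 and 593 CPM at 0 h and 743 and 752 CPM at 96 h and was not called. For MHC class I and peptide loading, 7 of 21 rose and 2 fell, beside a background of 25.4% and 22.9%, and the median of 0.09 turned negative under other scalings of the libraries. *NLRC5*, an activator of class I genes, rose from 44.5 and 48 to 344 and 341 CPM and *HLA-B* from 201 and 188 to 779 and 765 CPM. HLA genes are polymorphic and share sequence, so that counts of single HLA genes are uncertain.

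Interferon-stimulated genes had 23 of 44 members higher and 6 lower. *OAS1*, a sensor of double-stranded RNA, rose from 1.24 and 0.75 to 30.8 and 30.9 CPM, and *IFI30*, a lysosomal thiol reductase, from 4.85 and 3.98 to 111 and 106 CPM, while *MX1* fell from 15.8 and 15.7 to 6.97 and 6.11 CPM and *OAS3* from 40.1 and 39.1 to 12.5 and 11.7 CPM. Of the NF-kB pathway, 18 of 30 members rose and 1 fell. *NFKBIZ*, a nuclear regulator of NF-kB, had 3.301 and 4.05 CPM at 0 h and 194 and 196 CPM at 96 h (log2 fold change 5.70, SE 0.09). *TNFAIP3*, the A20 deubiquitinase that limits the pathway, fell from 37.03 and 35.6 to 9.36 and 10.7 CPM, and the subunits *NFKB1* and *RELA* were not called. In the TGF-beta pathway, 14 of 28 rose and 6 fell, with *SKI* from 17.3 and 19.5 to 296 and 311 CPM, *SMAD7* from 3.82 and 4.73 to 60.99 and 57.3 CPM, and *LTBP1*, which binds latent TGF-beta, from 31.5 and 29.3 down to 0.353 and 0.833 CPM.

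Genes of cell division fell as a group and kept measurable levels. Of 53 DNA replication genes, 45 fell and none rose, with a median log2 fold change of -1.09, and their summed level went from 7549 and 7390 CPM to 3432 and 3462 CPM. *UHRF1*, which reads hemimethylated DNA behind the fork, had 659 and 624 CPM at 0 h and 124 and 123 CPM at 96 h (log2 fold change -2.38, SE 0.05). *PCNA*, the sliding clamp of the fork, had 239 and 239 CPM at 0 h and 116 and 108 CPM at 96 h (log2 fold change -1.09), and *MCM3*, a subunit of the helicase, 252 and 240.3 and 98.8 and 104 CPM (log2 fold change -1.28). Every tested member kept counts at 96 h: the largest fall of the list, that of *UHRF1*, left a mean of 123 CPM, and *TOPBP1*, *MCM5*, *CLSPN* and *POLD3* were among those not called. Nucleotide synthesis followed, with 28 of 41 lower and 2 higher. *PAICS*, a purine enzyme, fell from 568 and 568 to 178 and 164 CPM. The members that rose were *SAMHD1*, which breaks nucleotides down, from 2.48 and 3.98 to 65.8 and 70.1 CPM, and *RRM2B*, the ribonucleotide reductase subunit of resting cells, from 49.6 and 48.5 to 119.9 and 113 CPM.

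Of 82 mitosis and kinetochore genes, 50 fell and 1 rose (median log2 fold change -0.74). *CDC20*, the activator of the anaphase-promoting complex, had 102 and 97.1 CPM at 0 h and 52.2 and 51.6 CPM at 96 h (log2 fold change -0.94). *PLK1*, a mitotic kinase, had 137 and 116 CPM at 0 h and 78.8 and 79.9 CPM at 96 h (log2 fold change -0.67, or -0.55 and not called without 0 h control replicate 1). *MYBL2*, which drives genes of the G2 and M phases, fell furthest, from 372 and 353 to 81.9 and 83.6 CPM. *MKI67*, the proliferation antigen, was not called, with 1034 and 1059 CPM at 0 h and 869 and 930.2 CPM at 96 h (log2 fold change -0.22). *ANLN*, a protein of the cleavage furrow that also binds actin, was the member that rose, from 96.2 and 97.3 to 141 and 155 CPM, a call that 2 other scalings, 2 other filters and the omission of 96 h control replicate 2 ended (log2 fold change 0.49 to 0.58, from 0.61). Replication-dependent histones had 35 of 52 tested members lower and 1, *HIST1H2BB*, higher (median -0.73). Homologous recombination and Fanconi repair had 27 of 45 lower and 1, *ATM*, higher.

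Promoters of some of these growth genes are shown as examples of short motifs that were more frequent in the mitosis or DNA replication list than among all promoters. The sequences are the 250 bases before the gene's start that lies farthest upstream in RefSeq (GRCh38.p14). They were chosen after the matches had been seen. Capitals mark matches on either strand to E2F (TTTCCCGC), NF-Y (CCAAT) and the cell cycle homology region CHR (TTTGAA), each named for the factor or element it is known from. *CDC20* lies at chr1:43358731-43358980, + strand, *PLK1* at chr16:23678639-23678888, + strand, *PCNA* at chr20:5126623-5126872, - strand and *MCM3* at chr6:52284743-52284992, - strand.
CDC20: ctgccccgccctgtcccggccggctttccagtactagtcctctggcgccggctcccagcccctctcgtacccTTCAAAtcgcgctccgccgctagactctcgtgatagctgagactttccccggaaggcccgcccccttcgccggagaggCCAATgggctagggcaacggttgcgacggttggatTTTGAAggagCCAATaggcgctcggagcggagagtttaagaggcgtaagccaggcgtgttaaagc
PLK1: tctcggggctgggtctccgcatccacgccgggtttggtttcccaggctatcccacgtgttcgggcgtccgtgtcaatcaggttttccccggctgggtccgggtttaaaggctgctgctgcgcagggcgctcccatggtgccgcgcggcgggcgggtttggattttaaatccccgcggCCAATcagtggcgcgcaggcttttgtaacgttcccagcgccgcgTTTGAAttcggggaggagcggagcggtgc
PCNA: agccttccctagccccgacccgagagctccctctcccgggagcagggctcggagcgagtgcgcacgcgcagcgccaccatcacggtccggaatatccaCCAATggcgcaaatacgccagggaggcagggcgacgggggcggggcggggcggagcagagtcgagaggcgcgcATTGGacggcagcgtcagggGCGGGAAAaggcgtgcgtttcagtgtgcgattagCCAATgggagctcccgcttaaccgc
MCM3: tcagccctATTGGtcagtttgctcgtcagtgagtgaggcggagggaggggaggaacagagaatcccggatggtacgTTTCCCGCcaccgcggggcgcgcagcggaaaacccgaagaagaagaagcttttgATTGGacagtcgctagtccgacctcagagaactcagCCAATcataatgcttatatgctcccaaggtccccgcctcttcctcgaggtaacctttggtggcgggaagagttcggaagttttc

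Counted over windows from 250 bases before to 50 bases after the start, TTTGAA was held by 40 of 69 mitosis promoters (58.0%) and by 15.5% of the 27284 promoters of the reference table and 10.2% of those of tested genes, and CCAAT by 47 of the 69 (68.1%) against 35.7% and 36.9%. In the 250 bases before the start alone, the share with TTTGAA was 39.1%. In the DNA replication list, TTTCCCGC was held by 11 of 46 promoters (23.9%) against 1.66% of all and 2.56% of those of tested genes, and CCAAT by 27 of 46 (58.7%). TTTCCCGC was held by 4.35% of mitosis promoters and TTTGAA by 4.35% of replication promoters. Over all lower genes the shares differed little from those of genes called neither way. They were 37.9% and 37.9% for CCAAT, 11.2% and 9.83% for TTTGAA, and 3.21% and 2.79% for TTTCCCGC. Promoters were at hand for 10736 of the 14758 tested genes, under 80% of them, so that the shares of tested genes are incomplete. They were at hand for 86.8% of the tested replication genes and 84.2% of the mitosis genes, but for 64.4% of the macrophage receptors, 64.0% of the lysosomal genes and 60.0% of the granule genes, so that no share is given for the last 3 lists. A match says that the letters occur in the window and nothing about binding.

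Regulators of the G1 phase moved both ways, 17 of 41 higher and 12 lower. *CDK6*, the G1 kinase of haematopoietic cells, had 687 and 718 CPM at 0 h and 88.2 and 96.9 CPM at 96 h (log2 fold change -2.93, SE 0.05). *SKP2*, which targets the inhibitor p27 for degradation, fell from 140.2 and 139 to 28.9 and 24.4 CPM, and *E2F1* from 117 and 106 to 33.3 and 33.6 CPM. The inhibitors *CDKN1A* and *CDKN1C* rose, from 119.5 and 104 to 315 and 326 CPM and from 2.99 and 1.43 to 35.5 and 37.1 CPM. *RB1* and *MDM2* were not called. The *MYC* and *MYB* network had 6 of 15 members higher and 3 lower. *MYC* fell from 532 and 467 to 116 and 113 CPM (log2 fold change -2.12), and *MXD1*, which competes with it for the partner *MAX*, rose from 4.44 and 5.93 to 126 and 128 CPM (log2 fold change 4.59).

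Genes that build ribosomes fell while ribosomal protein genes hardly moved. Of 70 ribosome biogenesis genes, 48 fell and 1, *RRP12*, rose (median -0.72), for example *UTP20* from 154 and 166 to 65.5 and 61.95 CPM. Of 84 cytosolic ribosomal protein genes, none rose and 5 fell, fewer than the background share, with a median of -0.16 and a summed level of 51220 and 48050 CPM at 0 h and 45400 and 43950 CPM at 96 h. Mitochondrial ribosomal proteins had 35 of 75 lower and 2 higher. *MRPL33* was an exception, at 15.6 and 11.3 CPM at 0 h and 72.02 and 74.4 CPM at 96 h. The *TCP1* chaperonin, which folds actin and tubulin, had 8 of 9 genes lower and 1 higher (log2 fold change 1.55). Among those that fell was *TCP1*, from 350.0 and 367 to 159 and 141 CPM. Proteasome subunits had 17 of 37 lower and none higher. RNA polymerase subunits had 14 of 28 lower and none higher. Splicing and RNA-binding genes had 24 of 53 lower and 1, *PTBP3*, higher.

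**Figure D4:**
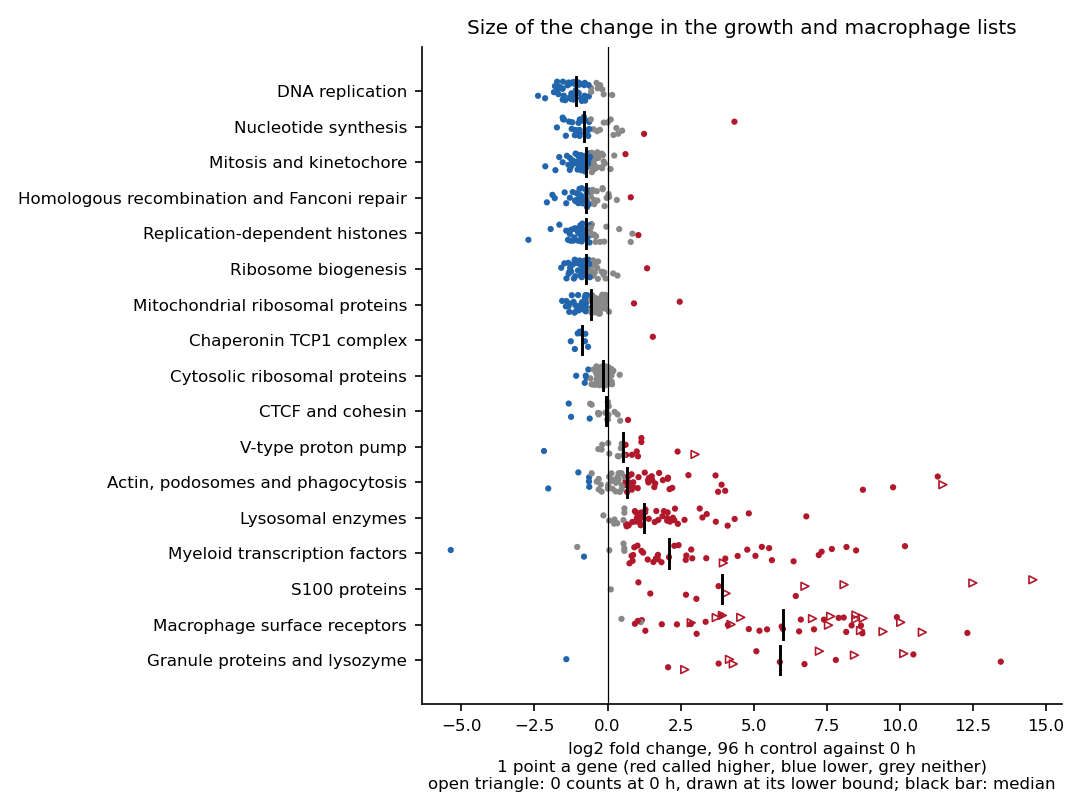
Log2 fold changes (96 h control against 0 h) of single genes in 17 lists, 1 point a gene, coloured by call, with the median of the list as a black bar and genes with 0 counts at 0 h as open triangles at their lower bound. The growth lists at the top have medians between -1.09 and -0.16, with single members as high as 4.34 in nucleotide synthesis and 2.47 in mitochondrial ribosomal proteins. The macrophage lists at the bottom spread over more than 10 units of log2, with medians of 3.93, 6.0 and 5.90.

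Lysosomal genes rose together: 42 of 50 tested members were higher and none was lower, with a median log2 fold change of 1.24 and a summed level of 2190 and 2124 CPM at 0 h and 7582 and 7692 CPM at 96 h. *CTSB*, the protease cathepsin B, had 66.01 and 57.1 CPM at 0 h and 1234 and 1260.5 CPM at 96 h (log2 fold change 4.35, SE 0.06). *CTSD*, cathepsin D, rose from 36.2 and 31.1 to 583 and 569 CPM and *PSAP*, the precursor of the saposins, from 148 and 135 to 1474 and 1494 CPM. *LAMP1*, a major glycoprotein of the lysosomal membrane, rose from 91.6 and 89.9 to 201 and 199 CPM (log2 fold change 1.14), and *CD68*, its relative in macrophages, from 2.68 and 2.33 to 69.7 and 72.3 CPM (log2 fold change 4.84). *CTSC* was not called, at 217 and 217 and 223 and 227 CPM. The proton pump that acidifies the lysosome had 9 of 20 subunits higher and 1, *ATP6V0E2*, lower, among them *ATP6V0D1* from 35.2 and 34.2 to 175 and 191 CPM.

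Single promoters of macrophage genes hold motifs of factors known to act in macrophages. Printed below are the 250 bases before the farthest upstream RefSeq start (GRCh38.p14) of *CD68* (chr17:7579388-7579637, + strand), *RNASE2* (chr14:20955237-20955486, + strand) and *LAMP1* (chr13:113296989-113297238, + strand), chosen after the matches had been seen. Capitals mark TTGCNNAA, a form of the C/EBP motif, in *CD68* and *RNASE2*, and TCACGTGA, the E-box of lysosomal genes, in *LAMP1*. TTGCNNAA on either strand occurs in 10.6% of the 27284 promoters of the table, counted from 250 bases before to 50 after the start, and in *CD68* it is read on the opposite strand.
CD68: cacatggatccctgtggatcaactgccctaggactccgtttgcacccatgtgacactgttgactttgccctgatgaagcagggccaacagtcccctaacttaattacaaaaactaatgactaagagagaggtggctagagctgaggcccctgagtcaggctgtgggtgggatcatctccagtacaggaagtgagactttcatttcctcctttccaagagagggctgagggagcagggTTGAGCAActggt
RNASE2: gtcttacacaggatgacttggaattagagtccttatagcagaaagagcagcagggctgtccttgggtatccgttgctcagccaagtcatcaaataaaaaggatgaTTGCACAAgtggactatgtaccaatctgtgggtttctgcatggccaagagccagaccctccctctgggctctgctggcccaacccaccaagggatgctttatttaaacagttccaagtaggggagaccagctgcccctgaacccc
LAMP1: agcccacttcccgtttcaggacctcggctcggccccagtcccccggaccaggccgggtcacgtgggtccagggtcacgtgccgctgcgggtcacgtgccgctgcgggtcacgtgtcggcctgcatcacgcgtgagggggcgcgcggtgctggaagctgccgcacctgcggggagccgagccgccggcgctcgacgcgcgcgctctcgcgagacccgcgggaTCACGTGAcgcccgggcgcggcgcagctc

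Genes of the actin skeleton and of phagocytosis had 38 of 71 members higher and 5 lower. *MYO1F*, a myosin of leukocytes, had 1.13 and 1.13 CPM at 0 h and 980.4 and 1015 CPM at 96 h (log2 fold change 9.77), and *ANXA1*, a regulator of inflammation that binds membranes, had 0 counts at 0 h and 361 and 383 CPM at 96 h (at least 2851-fold higher). *VAV3*, an exchange factor of lymphocyte signalling, fell from 174 and 191 to 42.5 and 47.2 CPM, and *ACTB* was not called, at 3769.8 and 3459 and 4809 and 4816 CPM. GTPase regulators of the ARHGAP and ARHGEF families had 23 of 47 higher and 9 lower.

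Lipid and iron genes of macrophages rose in part. Lipid efflux, uptake and eicosanoid genes had 18 of 31 tested members higher and 2 lower. *ALOX5*, the lipoxygenase that starts leukotriene synthesis, rose from 2.48 and 2.33 to 122 and 123 CPM, its activating protein *ALOX5AP* from 3.404 and 2.78 to 416 and 404 CPM, and *LTA4H*, which makes leukotriene B4, from 91.7 and 85.4 to 469 and 496 CPM. Iron and haem genes had 11 of 26 higher and 1, *FECH*, lower. *FTH1*, the heavy chain of ferritin, had 248 and 219 CPM at 0 h and 2252 and 2250.0 CPM at 96 h (log2 fold change 3.27, SE 0.05), and *NCOA4*, which delivers ferritin to the lysosome, rose from 126 and 134 to 1558 and 1536 CPM. *HMOX1*, which breaks down haem, had 1 and 0 counts at 0 h and 594 and 530 counts at 96 h (1170-fold higher, 95% counting interval 209.5 to 46240). *TFRC*, the transferrin receptor, was not called, at 305 and 298 and 249 and 224 CPM.

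Energy metabolism moved less as a whole than in single genes. Respiratory chain genes had 21 of 76 lower and 3 higher, near the background share for falls, with a median of -0.38. Glycolysis and lactate genes had 13 of 34 higher and 4 lower. *HK3*, the hexokinase of myeloid cells, had 3 and 2 counts at 0 h and 1420 and 1335 counts at 96 h (log2 fold change 9.09), and *SLC16A3*, which exports lactate, 1 and 0 and 1017 and 984 counts (2082-fold higher, 95% counting interval 373 to 82280). *SLC2A3*, a glucose transporter, rose from 15.1 and 17.5 to 210.5 and 206 CPM, while *LDHB*, a lactate dehydrogenase subunit, fell from 673 and 658 to 267 and 274 CPM. Cholesterol and fatty acid synthesis had 9 of 37 lower and 4 higher. *ACSL1*, which activates fatty acids, rose from 23.4 and 21.8 to 687 and 693 CPM (log2 fold change 4.94), and *ELOVL6*, an elongase, fell from 199.8 and 217 to 29.1 and 28.99 CPM (log2 fold change -2.84).

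Stress and survival lists were mixed. Of NRF2 targets, 13 of 33 rose and 8 fell. *GPX1*, a glutathione peroxidase, rose from 66.8 and 63.5 to 300.1 and 304 CPM, and *PRDX1*, a peroxiredoxin, fell from 538 and 514 to 174 and 170.2 CPM. The integrated stress response had 13 of 32 lower and 8 higher, with *ASNS*, the asparagine synthetase, from 65.1 and 58.2 to 18.98 and 21.3 CPM and *DDIT4*, an inhibitor of mTOR, from 22.8 and 18.2 to 331 and 328 CPM. In the *BCL2* family, 8 of 19 rose and 5 fell. *BCL2*, which blocks apoptosis, fell from 225 and 239 to 77.3 and 75.4 CPM, *BMF*, which opposes it, rose from 15.1 and 14.9 to 158 and 168 CPM, and *MCL1* was not called. Aminoacyl-tRNA synthetases had 12 of 37 lower and 1, *WARS*, higher, the latter from 32.7 and 38.5 to 159 and 163 CPM.

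Chromatin regulators mostly kept their levels. Polycomb genes had 5 of 32 higher and 5 lower, and CTCF and cohesin genes 1 of 18 higher and 3 lower. *NIPBL*, the loader of cohesin, rose from 292 and 307 to 478 and 499 CPM, by a log2 fold change of 0.70 that became 0.58 and was not called when libraries were scaled to their totals, or 0.59 with upper quartiles. In the same list, *ESCO2* and *CDCA5*, which act on cohesin in S phase, fell from 72.1 and 72.2 to 29.6 and 27.9 CPM and from 88.1 and 86.3 to 37.95 and 35.4 CPM. Among DNA methylation genes, 4 of 18 rose and 3 fell. *TET2*, which oxidizes methylcytosine, had 102 and 111 CPM at 0 h and 709 and 749.7 CPM at 96 h (log2 fold change 2.77, SE 0.05). *EZH2*, the methyltransferase of Polycomb, fell from 177 and 179.8 to 102 and 106 CPM and its paralog *EZH1* rose from 50.6 and 54.7 to 100.1 and 112 CPM. *KDM7A*, a histone demethylase, rose from 30.4 and 28.7 to 557 and 598 CPM (log2 fold change 4.29), while *KDM1A* fell from 412 and 421 to 201 and 195 CPM. Mediator subunits had 2 of 32 higher and 2 lower.

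**Figure D5:**
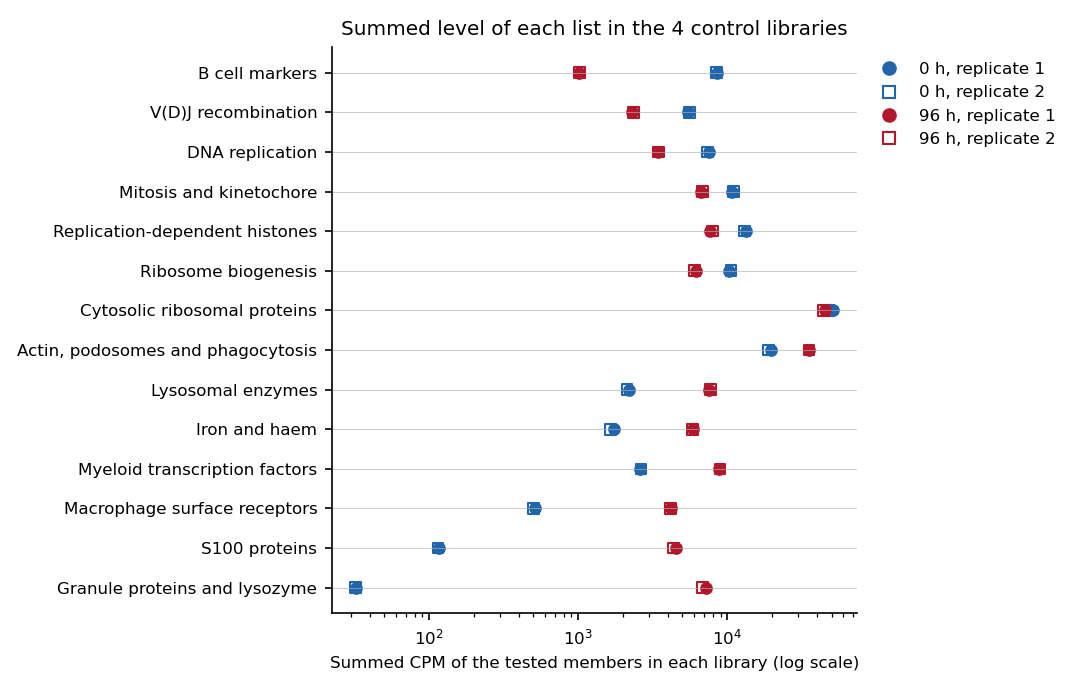
Summed CPM of the tested members of 14 lists (log scale) in each of the 2 libraries at 0 h (blue) and the 2 control libraries at 96 h (red), with replicate 1 as filled circles and replicate 2 as open squares. Cytosolic ribosomal proteins moved least as a fold, from 51220 and 48050 to 45400 and 43950 CPM, and granule proteins most, from 32.4 and 32.1 to 7134 and 6793 CPM.

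Large gene families were counted by symbol. Of 449 numbered zinc finger genes, 69 rose and 74 fell, both shares below the background, with a median of -0.01. *ZNF608* stood apart with 338 and 329 CPM at 0 h and 2.91 and 5.001 CPM at 96 h (log2 fold change -6.40). ZBTB zinc fingers had 11 of 36 higher and 3 lower. Solute carriers had 67 of 223 higher and 56 lower, RAB GTPases 13 of 48 higher and 8 lower, and kinesins 5 of 34 higher and 15 lower. *RAB27A*, which moves granules to the membrane, rose from 10.1 and 10.1 to 270.4 and 267 CPM, and *RAB31* from 3.82 and 4.58 to 76.6 and 86.1 CPM. Receptors of the *TNF* family had 9 of 13 higher and 3 lower: *TNFRSF1B*, a receptor of *TNF*, rose from 7.01 and 7.35 to 168 and 166 CPM, and *TNFRSF13C*, the B cell receptor for BAFF, fell from 32.1 and 30.8 to 3.001 and 2.04 CPM. Receptors with GPR symbols had 18 of 39 higher and 5 lower, with *GPR84*, a receptor for medium-chain fatty acids, from 0.103 and 0.15 to 128 and 127 CPM and *GPR176* from 111 and 109 down to 8.38 and 6.76 CPM.

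The dual-specificity phosphatases, which switch off MAP kinases, had 5 of 19 higher and 6 lower. *DUSP6*, specific for ERK, rose from 101 and 97.1 to 572 and 563 CPM, and *DUSP4* fell from 185 and 175 to 26.3 and 27.8 CPM. Claudins, cadherins and protocadherins, which are adhesion proteins, had 12 of 35 tested members higher and 7 lower. *CDH11* had 0 and 1 counts at 0 h and 493 and 485 counts at 96 h (1018-fold higher, 95% counting interval 182 to 40240), and *PCDH9* fell from 276 and 284 to 7.77 and 9.26 CPM. Tripartite motif proteins of the TRIM family had 10 of 45 higher and 9 lower, ABC transporters 7 of 30 and 12, histone deacetylases and sirtuins 3 of 18 and 2, histone methyltransferases 3 of 20 and 3, and translation initiation factors 1 of 36 and 6.

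Noncoding genes moved in both directions. Among tested genes annotated as long noncoding RNA, 123 of 468 rose and 93 fell, against 3126 and 2987 of 12460 protein-coding genes. Long intergenic genes with LINC symbols had 40 of 117 higher and 25 lower. *MALAT1*, a nuclear RNA and the gene of highest CPM at 96 h, rose from 12349.6 and 13325 to 22809 and 23124 CPM (log2 fold change 0.84). Antisense RNAs had 58 of 245 higher and 35 lower, and the strand setting of the counting is not given in the sources used here, so that reads of *ITGB2-AS1*, at 0.309 and 0.45 CPM at 0 h and 102 and 99.5 CPM at 96 h, and of *ITGB2* cannot be told apart. Host genes of small nucleolar RNAs had 9 of 17 lower and none higher. Small nucleolar RNAs themselves had 46 of 216 lower (21.3%) and 16 higher (7.41%), beside a background of 22.9% and 25.4%. Their summed level was 2201 and 2461 CPM at 0 h and 2681 and 2876 CPM at 96 h.

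The largest rise among microRNA genes of at least 10 CPM was that of *MIR223*, the myeloid microRNA gene, with 0 and 1 counts at 0 h and 309 and 268 counts at 96 h, that is 27.3 and 24.8 CPM (600.4-fold higher, 95% counting interval 107 to 23760). Of the microRNA host and precursor genes tested, 42 of 119 rose and 15 fell. These libraries count long precursor RNA, not mature microRNA. Its mature products, which lie at chrX:66018895-66018916 and chrX:66018937-66018958 (+ strand, GRCh38.p14, RefSeq), are shown because the seed, bases 2 to 8 in capitals, determines which transcripts they pair with, and the 2 arms have different seeds.
hsa-miR-223-5p: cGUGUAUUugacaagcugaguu
hsa-miR-223-3p: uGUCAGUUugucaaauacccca

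Genes switched on outnumbered genes switched off. With at most 3 counts over both libraries of 1 group and at least 1 CPM in each library of the other, 420 genes (2.85% of those tested) were switched on and 141 (0.955%) were switched off. Of the genes switched on, 337 were protein-coding, 231 had 0 counts at 0 h and 142 reached a mean of 10 CPM, with a median of 4.13 CPM. Of the genes switched off, 107 were protein-coding, 44 had 0 counts at 96 h and 9 had a mean of 10 CPM or more at 0 h, with a median of 2.58 CPM. Among the genes of highest level switched on were, after *S100A9*, *S100A8* and *ANXA1*, also *TDRD9*, *NACC2*, *CLEC12A* and *SPP1*. *TDRD9*, a helicase known from the germ line, had 0 and 1 counts at 0 h and 266 and 277 CPM at 96 h (6249-fold higher, 95% counting interval 1121 to 246900), and *NACC2* had 1 and 1 counts and 239 and 254 CPM (2834-fold higher, 95% counting interval 784 to 23400).

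The genes switched off were low at 0 h in comparison. *NELL1*, a secreted protein with von Willebrand repeats, had 31.6 and 28.3 CPM at 0 h and 1 and 0 counts at 96 h (656-fold lower, 95% counting interval 117 to 25960). *NKAIN4* had 27.2 and 26.4 CPM at 0 h and 0 counts at 96 h (at least 197-fold lower). *GCSAM*, a germinal centre protein, *KIF12*, a kinesin, and the homeobox gene *HOXA5* had mean levels of 19.04, 18.03 and 16.9 CPM at 0 h, followed by *GJA5*, *KCNJ16* and *TMPRSS3* at 15.3, 13.97 and 12.9 CPM. The abundant B cell genes were therefore lowered rather than switched off by this definition, since the 8 highest genes switched off lay below 30 CPM at 0 h.

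Some of the largest changes in level lay outside the lists. *FN1*, fibronectin, had 100 and 106 counts at 0 h and 82801 and 84034 counts at 96 h, from 10.3 and 7.95 to 7308 and 7782 CPM (log2 fold change 9.72, SE 0.10). *AHNAK*, a large scaffold protein, rose from 3.404 and 2.85 to 1780.5 and 1816 CPM (log2 fold change 9.18). *FCN1*, a pattern receptor secreted by monocytes, had 0 and 0 CPM at 0 h and 214 and 201 CPM at 96 h, and *NLRP12*, a regulator of inflammation in myeloid cells, 1.34 and 0.675 and 586 and 602 CPM. *LYST*, which controls the size of lysosome-related granules, rose from 21.6 and 21.8 to 1967 and 1962 CPM, and *MYH9*, non-muscle myosin, from 1252 and 1226 to 3181 and 3299.8 CPM. *SIRPB2* and *CLEC5A*, receptors of myeloid cells, had mean levels of 0 and 0 CPM at 0 h and 163 and 136 CPM at 96 h.

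Among falls, *TOP2B*, topoisomerase II beta, had the largest loss in mean CPM, from 4055 and 4283 to 799 and 804 CPM (log2 fold change -2.38, SE 0.05). *PLS3*, an actin-bundling protein, fell from 1574 and 1614 to 48.5 and 48.7 CPM (log2 fold change -5.03), and *LRMP*, a membrane protein of lymphocytes, from 1513 and 1571 to 103 and 105 CPM. *SLAMF1*, a receptor of lymphocytes, fell from 105 and 100.3 to 0.441 and 0.926 CPM, and *EYA4* from 103 and 113 to 0.883 and 0.185 CPM. *HSP90AA1*, a chaperone, fell from 2288 and 2472 to 1046 and 1031 CPM, *PTMA*, prothymosin alpha, from 2189 and 2039.8 to 1058 and 1028 CPM, and *TUBB*, a beta tubulin, from 1959 and 1914 to 945 and 951 CPM.

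*FAT1*, a large cadherin, fell from 1287 and 1336 to 259 and 269.7 CPM, *BCAT1*, which breaks down branched-chain amino acids, from 1313 and 1394 to 324 and 323 CPM, and *EDEM1*, which acts in disposal of misfolded glycoproteins, from 1579.7 and 1567 to 410.0 and 417 CPM. Deeper falls were seen for *AKAP12*, an anchor of protein kinase A, from 662 and 669 to 32.3 and 32.5 CPM and for *NID2*, a basement membrane protein, from 359 and 361 to 7.15 and 8.89 CPM. *APBA1* fell from a mean of 441 to 6.701 CPM, *SOGA2* from 518 to 22.5 CPM, *LRRC14B* from 53.7 to 0.179 CPM and the uncharacterized *LOC102724759* from 63.1 to 0.452 CPM.

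The oestrogen receptor, its targets and markers of other lineages were examined as well. The receptor genes and their targets had 2 of 9 higher and 4 lower: *RARA* rose from 24.1 and 21.2 to 115 and 114 CPM and *GREB1* fell from 10.5 and 12 to 2.56 and 1.76 CPM.

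T and NK cell markers had 8 of 22 genes at a level that could be tested, with 4 lower and 2 higher and a summed level of 166 and 149 CPM at 0 h and 60.7 and 58.5 CPM at 96 h. *LCK* fell from 13.7 and 14.7 to 0.265 and 0.0926 CPM, *GZMA* from 55.9 and 46.7 to 3.001 and 2.41 CPM, and *NKG7* rose from 2.48 and 2.85 to 34.9 and 34.5 CPM. Of erythroid and megakaryocyte markers, 4 of 21 could be tested, of which 3 rose and 1, *GP9*, fell, at a summed level of 5.88 and 3.83 CPM at 0 h and 33.8 and 34.5 CPM at 96 h. *PPBP* had 0 counts at 0 h and 15.1 and 19.5 CPM at 96 h (at least 132-fold higher). Granulocyte and mast cell markers, of which *MMP9*, *CAMP*, *CSF3R* and *PRG2* are also on lists above, had 10 of 12 tested higher and 2 lower. Dendritic cell and osteoclast markers had 7 of 11 tested higher and 2 lower. *LAMP3*, a lysosomal protein of mature dendritic cells, had 105 and 105 CPM at 0 h and 0.618 and 0.3704 CPM at 96 h (log2 fold change -7.69). Epithelial and stromal markers had 3 of 6 tested higher and 3 lower, with *PDGFRB* from 239.9 and 245 down to 28.1 and 26.3 CPM and *PECAM1*, which monocytes also carry, from 3.09 and 3.0 to 121 and 123 CPM. The part of other cell types in these values was not tested.

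For the cells that were converted without CTCF, the sums of both marker lists and some genes are given side by side, since both conversions share the 0 h libraries. The B cell markers summed to 876 and 895 CPM and the macrophage markers to 9165 and 8851 CPM in the CTCF-depleted libraries, beside 1005 and 1022 CPM and 10890 and 10460 CPM in the 96 h control libraries, sums that were not tested against each other. The test between the 2 groups at 96 h called 1836 genes (12.4%) in either direction. Lists differed in this: it called 53 of 82 mitosis and kinetochore genes and 46 of 52 replication-dependent histones. It called 0 of 70 ribosome biogenesis genes and 1 of 84 cytosolic ribosomal protein genes. The histones summed to 4239 and 4024 CPM in the depleted libraries, beside 7592 and 7934 CPM in the 96 h control libraries. *LYZ* had 4168 and 4147 CPM in the depleted libraries (log2 difference to control -0.12, adjusted p = 0.0408) and *SPI1* 271 and 263 CPM (log2 difference -0.25). *CYBB* had 648 and 599.8 CPM, lower than in the control libraries with a log2 difference of -0.93 (SE 0.05, adjusted p = 2.53e-24), and *FN1* had 12466 and 11913 CPM, higher than control with a log2 difference of 0.69 (SE 0.06, adjusted p = 7.22e-16). *IL7R* had 47.9 and 51.3 CPM and *RAG1* 2.41 and 1.66 CPM, both lower than in the control libraries by the same test (log2 differences -0.88 and -1.94).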

How the data were processed

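Total RNA of 6 cultures was depleted of ribosomal RNA and sequenced with a stranded paired-end kit. Per the labels and the study's methods, the authors mapped reads with STAR (2.6.1d) to hg38 within an nf-core pipeline and deposited raw counts per gene from featureCounts (2.0.6). The annotation release and the strand setting are not given in the sources used here. Reads shared by near-identical genes can be lost or misplaced by such counting.

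Genes were kept by filterByExpr, libraries were scaled by TMM, and edgeR (4.0.16, limma 3.58.1, R 4.3.3) quasi-likelihood fits over all 6 libraries with 1 term per group gave all tests. DESeq2 (1.42.0), other scalings, filters and thresholds, the 4 control libraries alone, a replicate block and each library left out were tried. On counts simulated for this comparison, 99 of 100 genes changed by 1 on the log2 scale and 100 of 100 changed by 2 were called. The changed genes were drawn only from genes above a minimum level, and recovery was not split by level, so that it gives no rate for genes with few counts. Simulated counts varied by the spread that edgeR had estimated from these data, so that the recovery does not check that estimate. The changed genes were few among the 14758 simulated, whereas 48.27% of tested genes were called in the data. Positions and exon lengths came from GENCODE 44 for 23448 genes (78.1%) matched by symbol. Counting intervals are exact. Intervals and bounds cover counting error only, since reads without molecular identifiers can be PCR copies of 1 molecule.

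Gene lists and families were chosen with earlier results of these data known. Genes were named from the 12 smallest adjusted p-values, the 10 largest fold changes at 50 CPM or more and the 10 largest changes in CPM in each direction, the 8 highest genes switched on or off, and members of lists and families. Some genes named by these rules are not reported here.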

Additional observations from a re-analysis of the deposited data

Results flagged for a closer look

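The following genes named above differed between the 2 groups at 96 h, so that the change from 0 h was not the same with and without CTCF. Each is given with its log2 difference, CTCF-depleted minus control, from edgeR's quasi-likelihood test at an adjusted p below 0.01 and a difference past 0.6 in size, which 12.4% of all tested genes passed. The 0 h libraries enter these differences only through the shared filter, scaling and estimate of the spread.

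Levels were lower in the depleted libraries for *LTBP1* (-3.38), *VSIG4* (-2.55), *RAG1* (-1.94), *CEBPD* (-1.56), *CD36* (-1.54), *DDIT4* (-1.51), *TNFRSF13C* (-1.37), *HMOX1* (-1.35), *APBA1* (-1.24), *IGLL1* (-1.18), *KLF10* (-1.10), *IRF8* (-1.06), *UHRF1* (-1.002), *CDKN1C* (-0.96), *CYBB* (-0.93), *BCAT1* (-0.91), *VPREB1* (-0.89), *IL7R* (-0.88), *TLR2* (-0.84), *ANLN* (-0.81), *MYBL2* (-0.80), *CXCR4* (-0.79), *SMAD7* (-0.79), *CDC20* (-0.78), *BMF* (-0.77), *CDKN1A* (-0.76), *GPR176* (-0.74), *NOD2* (-0.71), *SIGLEC1* (-0.71), *MKI67* (-0.71), *MPO* (-0.70), *TFRC* (-0.69), *E2F1* (-0.68), *POU2AF1* (-0.67), *CTSB* (-0.66), *PLK1* (-0.65), *AKAP12* (-0.65), *TNFRSF1B* (-0.63), *MSR1* (-0.61) and *XRCC4* (-0.61). Among these, *DDIT4*, *CEBPD* and *VSIG4* rose in the conversion with CTCF, and *LTBP1*, *RAG1* and *IGLL1* fell in it.

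Levels were higher in the depleted libraries for *ITGB3* (3.64), *LAMP3* (2.88), *CLEC4A* (1.94), *PCDH9* (1.57), *CD22* (1.47), *TNFAIP3* (1.41), *GZMA* (1.38), *VPREB3* (1.34), *TRIB2* (1.21), *ITGAM* (1.15), *NID2* (1.04), *ASNS* (0.82), *JAK2* (0.79), C3 (0.76), *TRIB1* (0.70), *FN1* (0.69), *ITGB2-AS1* (0.62) and *CD59* (0.61). Among these, *ITGB3*, *LAMP3* and *CD22* fell in the conversion with CTCF, and *FN1* and *ITGAM* rose in it.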

How the results depend on the processing

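The count of higher genes lay between 2744 and 5612 and that of lower genes between 2075 and 5500 over the other tools, scalings, filters and thresholds. The lower genes numbered 5500 when no fold limit was set and the adjusted p was below 0.05 and 2075 with a log2 fold change past 1. With DESeq2, 3353 genes were higher and 2975 lower, with upper-quartile scaling 3331 and 3987, and with library totals alone 3323 and 3999. Leaving out each of the 4 libraries in turn gave 3519 to 3598 higher and 3154 to 3230 lower genes, the remaining library of a group being assumed to vary like the other groups. A floor of 10 counts in place of 3 gave 637 genes switched on and 325 switched off, and a minimum of 5 CPM in place of 1 gave 182 and 27. The share of mitosis promoters with TTTGAA was 39.1% in the 250 bases before the start, and 63.6% among genes with 1 listed start, an alternative chosen after seeing the data.

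With the replicate numbers as a block, 3730 genes were higher and 3360 lower, and no named gene changed its call. Differences between replicate 2 and replicate 1 had a correlation of -0.02 across genes between the 0 h and 96 h control groups. No shared effect of the replicate number was thus seen. Whether same-numbered cultures were handled together is not given in the labels. The median of MHC class I and peptide loading genes, 0.09, became -0.0302 with upper-quartile scaling and -0.0329 with library totals alone, scalings that moved the median of all genes by up to 0.119. Of 248 named genes, 237 kept their call under each other tool, scaling, count filter, choice of libraries and omission in which they were tested, and the other 11 are given with their values in the text. Other thresholds were not applied to single genes. The causes of these changes were not tested. Counting limits precision most for genes with few counts at 0 h.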

Other observations

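Several neighbouring homeobox genes of the HOXA cluster were among the genes switched off, a group picked out after its values were seen. *HOXA5* had 17.02 and 16.9 CPM at 0 h and 2 and 0 counts at 96 h (187-fold lower, 95% counting interval 51.5 to 1553). *HOXA3* had 7.74 and 7.35 CPM at 0 h and 0 counts at 96 h (at least 55.4-fold lower), and *HOXA6* had 7.12 and 7.65 CPM at 0 h and 0 and 1 counts at 96 h (164-fold lower, 95% counting interval 29.1 to 6528). *HOXA4*, *HOXA2* and the antisense gene *HOXA-AS3* were lower still at 0 h, with means of 2.22, 1.39 and 1.61 CPM, and had 0 counts at 96 h. HOXA genes are known to be active in early progenitors and to be shut during differentiation, and reads of overlapping transcripts in the cluster cannot be told apart.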
